A study of Homo sapiens with 20 samples.

Results

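Keratins are the intermediate filament proteins of epithelial cells, and 10 of them were followed here at the level of mRNA. They were chosen by name, with earlier results of these data known, out of 60271 genes in the deposited tables. The 4 simple keratins were KRT7, KRT8, KRT18 and KRT19, and the 6 basal and stress keratins were KRT5, KRT14, KRT6A, KRT6B, KRT16 and KRT17. The cells were MDA-MB-468, a triple-negative breast cancer cell line with a high level of the EGF receptor. They were starved of serum and then kept without EGF (control) or given EGF at 50 ng/mL, which stayed on for 12, 24, 48 or 72 h, a treatment used to induce an epithelial-mesenchymal transition (EMT). Each of the 5 groups had 4 biological replicates, which makes 20 bulk RNA libraries. Wells of all groups were seeded and harvested together, so that they differed in when EGF was added. Cultures with a longer time with EGF were thus younger when it was added. Time with EGF and age of the culture at that point cannot be told apart. The data come from 1 cell line, and p-values measure the spread between cultures of 1 experiment.

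Keratin filaments are built from pairs of an acidic type I and a basic type II keratin. KRT8 and KRT18 form the pair of simple epithelia, such as the luminal cells of the breast, which also have KRT7 and KRT19. KRT5 and KRT14 form the pair of basal cells, and KRT6A, KRT6B, KRT16 and KRT17 are known as stress keratins because they are induced in injured or rapidly dividing epidermis. In EMT, keratins are generally described as giving way to vimentin, another intermediate filament protein.

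Several of these genes are near-copies of each other, which bears on how well their counts can be told apart. The coding sequences of KRT6A and KRT6B differed at 42 of 1692 bases (97.52% identical in the GRCh38 transcripts of GENCODE 29). The window of 75 bases, the read length, with the most differences between them is shown from base 671 to base 745 of each coding sequence, with the 10 differing bases in capitals. It lies in exon 2 of both genes, at chr12:52491532-52491606 for KRT6A and chr12:52450416-52450490 for KRT6B, on the minus strand.
KRT6A: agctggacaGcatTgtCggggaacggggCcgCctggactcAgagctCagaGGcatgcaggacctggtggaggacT
KRT6B: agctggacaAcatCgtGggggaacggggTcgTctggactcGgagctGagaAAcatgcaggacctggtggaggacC

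Other stretches cannot separate them. The first 75 coding bases, in exon 1, were identical in KRT6A (chr12:52493114-52493188), KRT6B (chr12:52452004-52452078) and KRT6C (chr12:52473663-52473737), a further copy between them. In all, 371 of the 1618 coding windows of this length in KRT6A occurred in KRT6B at the same place. A read from the shared window below fits all 3 genes.
KRT6A, KRT6B and KRT6C: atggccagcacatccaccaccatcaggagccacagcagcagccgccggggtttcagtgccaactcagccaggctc

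KRT14 and KRT16 are less alike, at 87.91% of aligned coding bases, but share stretches of the length of a read too. The window below was found in exon 1 of KRT14 (chr17:41586451-41586525) and of KRT16 (chr17:41612299-41612373), both on the minus strand.
KRT14 and KRT16: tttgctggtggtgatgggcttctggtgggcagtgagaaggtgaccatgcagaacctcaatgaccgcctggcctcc

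Over the whole principal transcript, the share of windows of 75 bases that also occur in a transcript of another gene was 34.92% for KRT6B and 26.21% for KRT6A. It was 17.81% for KRT8, mostly from pseudogenes, 10.01% for KRT14 and 9.68% for KRT16. For KRT18 it was 5.85%, for KRT17 4.57% and for KRT5 2.44%, and KRT7 and KRT19 had no such window. How reads that fit several genes were counted is not given in the sources used here. Values of KRT6A, KRT6B, KRT8, KRT14 and KRT16 are uncertain to that extent. KRT6C itself had at most 11 counts in any library.

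The type II genes lie together on chromosome 12, KRT7 (chr12:52232520-52252186, plus strand), KRT6B (chr12:52446651-52452126), KRT6A (chr12:52487174-52493257), KRT5 (chr12:52514575-52520687) and KRT8 (chr12:52897187-52949954), the last 4 on the minus strand. Next to KRT8 lies KRT18 (chr12:52948871-52952901, plus strand), the only type I gene among the 10 on that chromosome. The other type I genes are on the minus strand of chromosome 17, KRT19 (chr17:41523617-41528308), KRT14 (chr17:41582279-41586921), KRT16 (chr17:41609778-41615899) and KRT17 (chr17:41619441-41624842). Exons of KRT8 and KRT18 overlap on opposite strands, over 7.6% of the exon bases of KRT8 and 16.3% of those of KRT18. Exons of KRT7 overlap those of its antisense gene KRT7-AS over 6.9%. Whether the counting used the strand is not given in the sources used here, so reads from these overlaps cannot be assigned.

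Libraries held between 15611961 and 25856953 counts. Levels are given as CPM, counts scaled to a common library size, after TMM scaling, as mean ± SD (n = 4), and per kb of the principal transcript where genes are compared with each other. Each adjusted p comes from the quasi-likelihood test of edgeR, adjusted by Benjamini-Hochberg over the 16522 genes tested, and a gene was called where it was under 0.05. All 10 keratins were among the genes tested. The 5 epithelial markers CDH1, EPCAM, CLDN4, ESRP1 and GRHL2 were present, with a sum of 502 to 700 CPM. They were not steady. At 12 h CDH1, EPCAM and CLDN4 were called higher than the control (log2 fold changes 0.51, 0.24 and 1.16) and GRHL2 lower (-0.93). At 72 h CDH1, EPCAM and GRHL2 were called lower (-0.49, -0.33 and -0.83), and CLDN4 and ESRP1 higher (0.27 and 0.17). EGFR was at 3357 to 12124 CPM, ERBB2 at 7.79 to 24.6 CPM and ESR1 at 1.91 to 6.53 CPM, while PGR had 0 counts in all libraries. Of the markers of other cell types, those of fibroblasts summed to 5.53 to 15.5 CPM, with 6 of 7 genes under 1 CPM on average, and those of endothelial cells to 1.43 to 6.07 CPM. Immune markers rose from 1.11 to 2.23 CPM in the control to 25.3 to 29.9 CPM after 72 h of EGF, of which nearly all was CD68, a lysosomal protein, at 26.7 ± 2.13 CPM there (SD, n = 4). LYZ, the gene of lysozyme, was at 1.37 ± 0.29 CPM after 72 h of EGF. On average, 9.41% of counts were mitochondrial at 12 h, 10.9% in the control and 15.0% at 72 h. The part of these differences in the results was not tested. In bulk RNA, more cells that express a gene and more RNA per cell cannot be told apart.

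All 10 keratins rose within 12 h of EGF, 9 of them fell from 24 to 48 h, and 8 of them rose again from 48 to 72 h. Together they held 0.163 to 0.219% of all counts in the control libraries and 0.975 to 1.06% at 12 h. Their share was 0.508 to 0.606% at 24 h, 0.207 to 0.230% at 48 h and 0.323 to 0.376% at 72 h. At 12 and at 24 h, all 10 were higher than in the control, and in each of them all 4 EGF libraries lay above all 4 control libraries. For the background, 32.9% of all genes tested were called higher at 12 h and 29.2% at 24 h. At 48 h, 4 of 10 were called higher (3 with a scaling factor for each gene, given with KRT14), against 24% of all genes, and at 72 h 8 of 10, against 30.6%. None of the 10 was called lower than the control at any of the 4 times by edgeR, at an unadjusted p under 0.05 or by DESeq2 (0 each), where edgeR called 36.5%, 29.6%, 21.8% and 31% of all genes lower. All of these comparisons share the same 4 control libraries. Since the 10 were chosen with earlier results of these data known, the counts describe them and are not a test of keratins as a group.

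**Figure D1:**
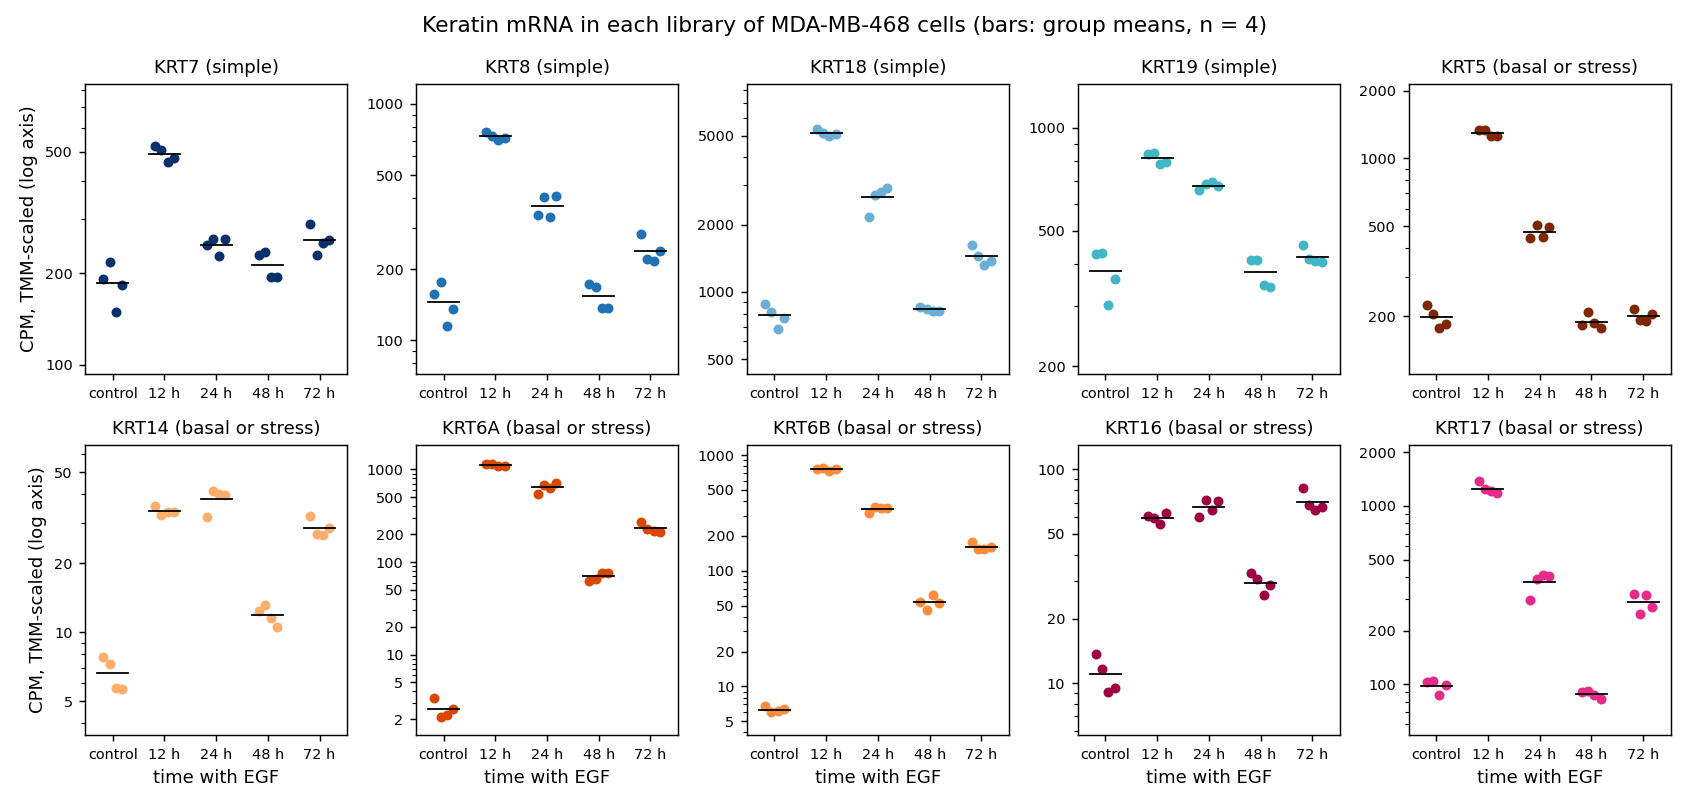
CPM after TMM scaling (log axis, with its own range for each gene) of the 10 keratins in each of the 20 libraries, with points for libraries, in the order of their replicate numbers, and bars for group means (n = 4). Every keratin had its 12 h libraries above its control libraries, and at 48 h the points of KRT7, KRT8, KRT18, KRT19, KRT5 and KRT17 overlapped those of the control.

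KRT18, the type I simple keratin that pairs with KRT8, had the highest level per kb of the 10 keratins in every group, from 504 CPM per kb in the control to 3288 at 12 h. In the 4 control libraries, with values here and below in the order of replicate numbers, it was at 884, 817, 684 and 767 CPM, and at 12 h at 5342, 5116, 4980 and 5107 CPM. It was at 2174, 2724, 2789 and 2912 CPM after 24 h of EGF, at 860, 836, 823 and 823 CPM after 48 h of EGF and at 1624, 1445, 1326 and 1369 CPM after 72 h of EGF. The 12 h libraries were far above all others, and those of 48 h fell among the controls. The rise at 12 h was 6.52-fold (log2 fold change 2.70, SE 0.087, adjusted p = 6.36e-18). At 24 h it was 3.36-fold (adjusted p = 1.31e-14) and at 72 h 1.83-fold (adjusted p = 2.53e-09). At 48 h the log2 fold change was 0.08 (SE 0.082, adjusted p = 0.42), less than the spread allows to call.

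KRT8, the type II partner of KRT18, was also highest at 12 h, at a lower level. It was at 115 to 176 CPM in the control, 705 to 762 after 12 h, 332 to 407 after 24 h, 137 to 173 after 48 h and 217 to 281 after 72 h. The groups of 12, 24 and 72 h were each clear of the control, and that of 48 h lay within it. KRT8 rose 4.99-fold after 12 h (log2 fold change 2.32, SE 0.117, adjusted p = 4.02e-14), 2.54-fold after 24 h (adjusted p = 6.42e-10) and 1.64-fold after 72 h (adjusted p = 8.57e-06). Per kb, its level was 0.153 ± 0.0178 times that of KRT18 in the control and 0.118 ± 0.000987 times at 12 h (SD, n = 4). With 17.81% of its windows shared with other genes, and its exons overlapping those of KRT18, this ratio is uncertain.

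KRT7, a type II keratin of ductal epithelium, was at 149 to 217 CPM in the control and 463 to 523 CPM after 12 h of EGF. It was back to 227 to 259 CPM after 24 h of EGF, 195 to 234 CPM after 48 h of EGF and 230 to 290 CPM after 72 h of EGF. From 24 h on its groups lay close to each other, just above the control or overlapping it. The rise was 2.65-fold after 12 h (log2 fold change 1.41, SE 0.094, adjusted p = 3.9e-12), 1.34-fold after 24 h (adjusted p = 0.000458) and 1.39-fold after 72 h (adjusted p = 0.000123). At 48 h the log2 fold change was 0.20 (SE 0.093, adjusted p = 0.0783). That value passed the threshold without control replicate 2 (0.29, adjusted p = 0.0107) or replicate 3 of 48 h (0.24, adjusted p = 0.0479), and with at least 10 counts in every library (0.24, adjusted p = 0.0395) or the replicate block (0.21, adjusted p = 0.0323).

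KRT19, the smallest keratin, a type I protein of simple epithelia, had the smallest rise at 12 h of the 10 keratins. Its control libraries were at 428, 429, 303 and 360 CPM, and those of 12 h at 840, 843, 786 and 793 CPM. At 24 h it was still at 658, 685, 692 and 674 CPM, and then at 409, 410, 347 and 342 CPM after 48 h of EGF and 455, 413, 406 and 405 CPM after 72 h of EGF. The late groups overlapped the control, in which 2 libraries were about as high as those of 72 h. KRT19 was 2.14-fold higher than the control at 12 h (log2 fold change 1.10, SE 0.087, adjusted p = 7.04e-11) and 1.78-fold after 24 h (adjusted p = 1.4e-08). At 72 h the log2 fold change was 0.14 (SE 0.086, adjusted p = 0.153), and without control replicate 2 it was 0.20 (adjusted p = 0.0429). Per kb, it came next to KRT18 among the 10 in the control, at 273 CPM per kb, and at 12 h it was behind KRT17 too, at 586 CPM per kb against 826.

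KRT5, the type II keratin of basal cells, rose at 12 h about as much as KRT18, and at 48 h its libraries overlapped the control. Its control libraries were at 224, 205, 178 and 185 CPM and those of 12 h at 1341, 1336, 1253 and 1255 CPM. At 24 h it was at 446, 506, 450 and 498 CPM, at 48 h at 183, 210, 186 and 177 CPM and at 72 h at 215, 192, 191 and 205 CPM. The libraries of 48 and 72 h lay within or next to the range of the control. The rise was 6.55-fold after 12 h (log2 fold change 2.71, SE 0.077, adjusted p = 7.67e-19) and 2.40-fold after 24 h (adjusted p = 4.5e-13). At 48 h the log2 fold change was -0.07 (SE 0.073, adjusted p = 0.48) and at 72 h 0.02 (SE 0.073, adjusted p = 0.811).

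KRT14, the type I partner of KRT5 in basal cells, was rare in these cells, at 3.98 CPM per kb in the control against 78.2 for KRT5. It was at 7.79, 7.27, 5.72 and 5.67 CPM in the control, at 35.6, 32.5, 33.5 and 33.6 CPM after 12 h of EGF and at 32, 41.2, 40.1 and 39.9 CPM after 24 h of EGF. At 48 h it was at 12.4, 13.1, 11.5 and 10.5 CPM and at 72 h at 32.3, 26.8, 26.7 and 28.5 CPM. All 16 EGF libraries were above all controls, those of 48 h by the least. The log2 fold change was 2.35 at 12 h (SE 0.109, adjusted p = 4.94e-15), 2.53 at 24 h (SE 0.109, adjusted p = 1.7e-15), 0.84 at 48 h (SE 0.112, adjusted p = 1.58e-06) and 2.11 at 72 h (SE 0.109, adjusted p = 3.93e-14). KRT14 was the keratin most affected by the scaling. With a factor for each gene and library, taken from the normalized values that the authors deposited, its log2 fold change was 1.5 at 12 h, 1.58 at 24 h and 1.23 at 72 h, and at 48 h it was 0.24 and no longer called (adjusted p = 0.0909).

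KRT6A, a type II keratin of wounded epidermis and of hair follicles, had the largest rise. Its control libraries were at 3.37, 2.14, 2.22 and 2.60 CPM, from 51 to 67 counts each, and those of 12 h at 1145, 1158, 1084 and 1084 CPM. It was at 541, 686, 623 and 719 CPM after 24 h of EGF, at 61.7, 65.4, 76.9 and 77.0 CPM after 48 h of EGF and at 269, 225, 219 and 213 CPM after 72 h of EGF. No group overlapped another. The rise at 12 h was 436-fold (log2 fold change 8.77, SE 0.143, adjusted p = 2.51e-23), which had rank 10 from the top among the 16522 genes by fold change. At 24 h it was 251-fold, at 48 h 27.4-fold (log2 fold change 4.78, SE 0.132, adjusted p = 1.13e-18) and at 72 h 90.5-fold (log2 fold change 6.50, SE 0.135, adjusted p = 2.29e-21). From the lowest per kb of the 10 in the control, at 1.12 CPM per kb, it came to 484 CPM per kb at 12 h, close to KRT5 at 512.

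KRT6B, its near-copy, had its groups in the same order from a somewhat higher start. It was at 6.78, 6.01, 6.06 and 6.30 CPM in the control and at 758, 771, 730 and 766 CPM after 12 h of EGF. At 24 h it was at 315, 357, 352 and 347 CPM, at 48 h at 54.1, 46.1, 61.9 and 52.1 CPM and at 72 h at 177, 153, 153 and 161 CPM. Here too no group overlapped another. The rise was 120-fold after 12 h (log2 fold change 6.91, SE 0.097, adjusted p = 1.43e-24), 54.5-fold after 24 h, 8.53-fold after 48 h and 25.6-fold after 72 h (log2 fold change 4.68, SE 0.090, adjusted p = 4.83e-22). With the counts of KRT6A, KRT6B and KRT6C summed, which does not depend on how reads were split between them, the log2 fold change was 7.72 after 12 h, 6.80 after 24 h, 3.80 after 48 h and 5.47 after 72 h.

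KRT16, the type I keratin that is induced together with KRT6 in wounded epidermis, stayed at a low level. It was at 13.7, 11.7, 9.13 and 9.56 CPM in the control, at 60.4, 59.5, 55.3 and 62.4 CPM after 12 h of EGF and at 60.0, 72.0, 64.5 and 71.1 CPM after 24 h of EGF. At 48 h it was at 32.9, 30.7, 26 and 28.7 CPM and at 72 h at 81.6, 68.3, 64.7 and 66.4 CPM. All EGF libraries were above the control, and those of 24 h overlapped both those of 12 h and those of 72 h. The log2 fold change was 2.43 at 12 h (SE 0.111, adjusted p = 3.49e-15), 2.60 at 24 h, 1.42 at 48 h (SE 0.111, adjusted p = 2.11e-10) and 2.68 at 72 h (SE 0.111, adjusted p = 6.78e-16). Pseudogenes of KRT16 held counts equal to 30.3% of its own, far more than for the other members, where it was 1.36% or less. With these added, the log2 fold change was 2.54 after 12 h, 2.74 after 24 h, 1.79 after 48 h and 2.89 after 72 h.

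KRT17, a type I stress keratin that is also found in basal-like breast cancers, was the most abundant per kb of the 6 basal and stress keratins at 12 h. It was at 103, 104, 87.4 and 98.7 CPM in the control, at 1379, 1240, 1211 and 1178 CPM after 12 h of EGF and at 295, 388, 410 and 405 CPM after 24 h of EGF. At 48 h it was at 90.8, 91.9, 86.8 and 82.6 CPM and at 72 h at 322, 247, 317 and 272 CPM. Those of 48 h lay at or slightly below the control libraries. The rise was 12.8-fold after 12 h (log2 fold change 3.67, SE 0.104, adjusted p = 7.7e-19), 3.82-fold after 24 h (adjusted p = 3.46e-14) and 2.95-fold after 72 h (adjusted p = 1.25e-12). At 48 h its log2 fold change was -0.16 (SE 0.096, adjusted p = 0.188).

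**Figure D2:**
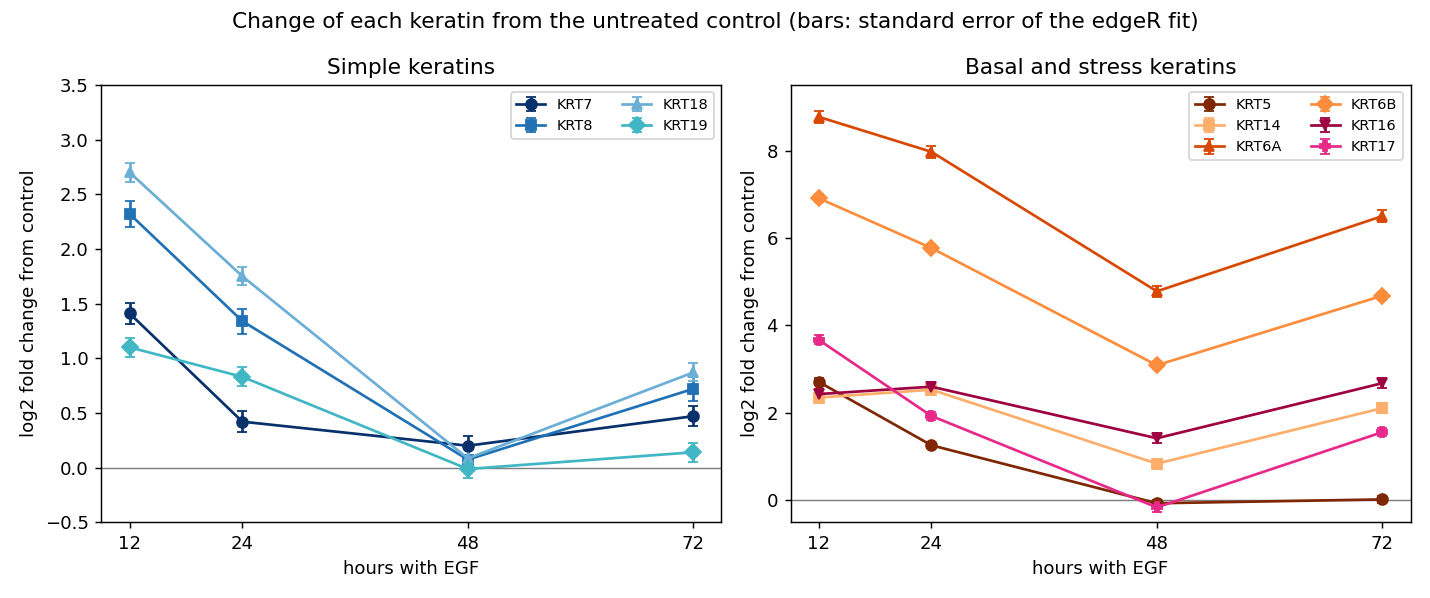
Log2 fold change of each keratin from the untreated control against hours with EGF, with the standard error of the edgeR fit as bars, for the 4 simple keratins (left, axis to 3.5) and the 6 basal and stress keratins (right, axis to 9.5). At 48 h the simple keratins lie between -0.01 and 0.20, while KRT6A (4.78), KRT6B (3.09), KRT16 (1.42) and KRT14 (0.84, not called with a scaling factor for each gene) are above the control.

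Simple keratins and basal and stress keratins are described next as classes, and the difference between the classes was not tested. The log2 fold changes of the 4 simple keratins at 12 h were between 1.10 and 2.70, with a median of 1.86, and those of the 6 basal and stress keratins between 2.35 and 8.77, with a median of 3.19. At 24 h the medians were 1.09 and 2.57, and at 72 h 0.59 and 2.39. At 48 h they were 0.08 and 1.13, with 0 of 4 simple and 4 of 6 basal and stress keratins called higher by edgeR, against 24% of all genes. With a scaling factor for each gene, KRT14 was not called (adjusted p = 0.0909), which leaves 3 of the 6. KRT5 and KRT17 lay beside the simple keratins at 48 h, at -0.07 and -0.16. Of the simple keratins, 1 (KRT7) had an unadjusted p under 0.05 there, and DESeq2 called 0. Over all genes tested, the medians were -0.05, -0.01, 0.01 and -0.01 at 12, 24, 48 and 72 h. The classes overlapped, since KRT18 and KRT8 rose about as much at 12 h as KRT5, KRT14 and KRT16. The wide range within the basal and stress class came from KRT6A and KRT6B.

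The share of a class within the keratin counts of a library does not depend on the scaling between libraries. Basal and stress keratins held 17.8 ± 0.729% of the counts of the 10 keratins in the control, 38.6 ± 0.339% after 12 h, 33.0 ± 0.435% after 24 h, 21.9 ± 0.994% after 48 h and 29.4 ± 0.941% after 72 h (SD, n = 4). No 2 groups overlapped, since the control reached at most 18.7% and 48 h at least 20.6%. Per kb of transcript the shares were lower but in the same order, at 14.1% in the control and 32.7% at 12 h. In CPM, simple keratins summed to 1499 ± 192 in the control, 7172 ± 223 at 12 h and 1579 ± 92.8 at 48 h, and basal and stress keratins to 323 ± 30.6, 4516 ± 173 and 442 ± 13.2. These shares are given as a description, with no test.

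Within this makeup, KRT18 stayed at 41.4 to 44.9% of the keratin counts on average in all 5 groups. The part of KRT19 shrank most, from 20.8 ± 0.869% in the control to 6.97 ± 0.118% at 12 h and 18.6 ± 0.960% at 48 h. KRT7 went from 10.2 ± 0.692% to 4.21 ± 0.0967% at 12 h. KRT6A went from 0.142 ± 0.0242% in the control to 9.56 ± 0.190% at 12 h and 10.9 ± 0.453% at 24 h, and was still at 3.49 ± 0.554% at 48 h. KRT17 went from 5.41 ± 0.288% to 10.7 ± 0.448% at 12 h, while that of KRT5 was 10.9 ± 0.542% in the control and 11.1 ± 0.170% at 12 h.

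**Figure D3:**
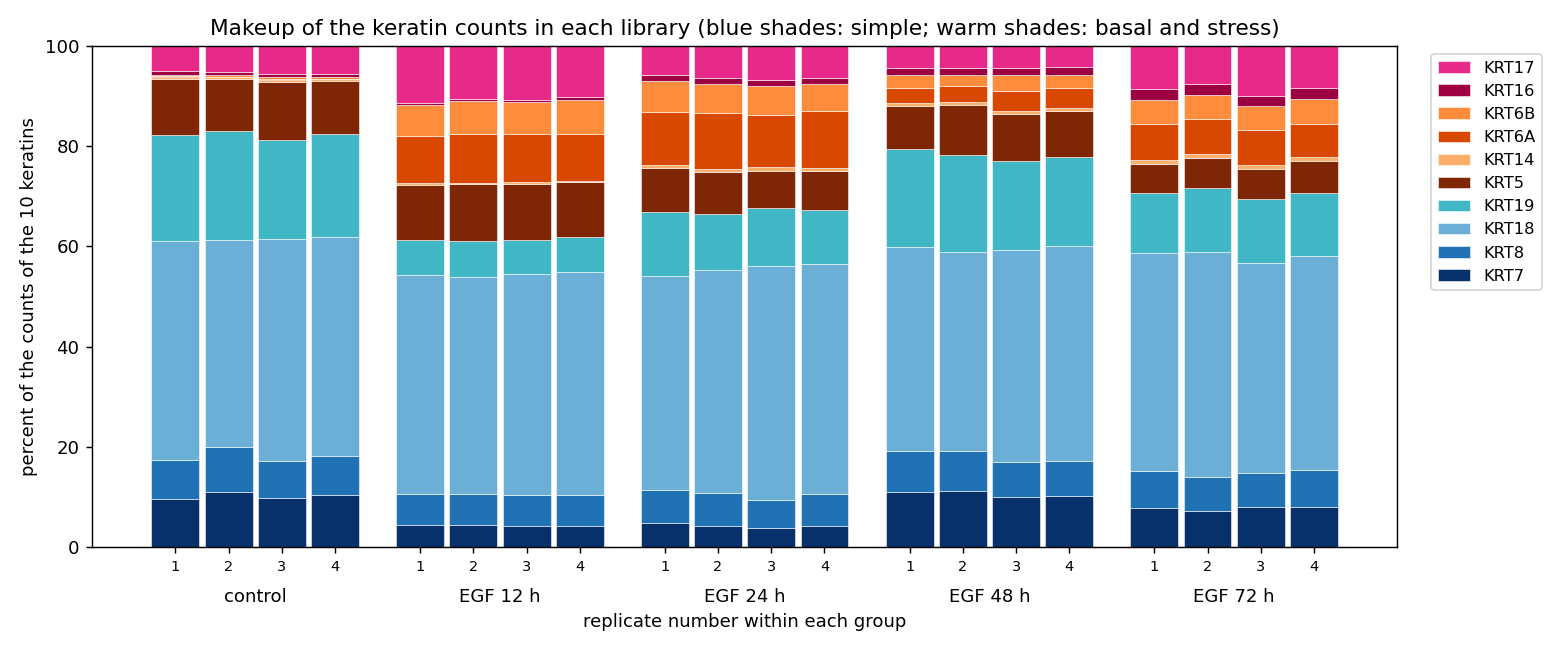
Percent of the counts of the 10 keratins that each gene held in each library, stacked, with simple keratins in blue shades at the bottom and basal and stress keratins in warm shades on top. The warm part is 17.8% on average in the control, 38.6% at 12 h and 21.9% at 48 h, and the 4 libraries of each group look alike.

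The ratios between keratins that pair in filaments varied over the groups. Per kb, KRT5 was at 19.8 ± 1.38 times KRT14 in the control, 25.2 ± 1.20 times at 12 h, 8.19 ± 0.734 times at 24 h, 10.5 ± 0.584 times at 48 h and 4.63 ± 0.169 times at 72 h. This ratio rests on KRT14, whose level depends on the scaling per gene. KRT6A was at 0.168 ± 0.0267 times KRT16 per kb in the control and at 13.4 ± 0.725 times at 12 h, and then at 6.82 ± 0.318, 1.72 ± 0.352 and 2.35 ± 0.0522 times. The ratio of KRT8 to KRT18 moved little beside these, between 0.117 and 0.153. All type II over all type I members, per kb, was 0.311 ± 0.0142 in the control and 0.420 ± 0.00728 at 12 h, so that type I mRNA was in excess in all groups.

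The near-copies KRT6A and KRT6B changed order. In the control, KRT6A had 0.408 ± 0.0638 times the counts of KRT6B, with 0.496 as the highest of 4 libraries. With EGF it had 1.48 ± 0.0437 times at 12 h, 1.87 ± 0.161 times at 24 h, 1.32 ± 0.155 times at 48 h and 1.44 ± 0.0818 times at 72 h, with 1.14 as the lowest of 16 libraries. The windows printed above show where reads tell them apart, and how reads from the shared windows were assigned is not known, so that the ratio is of the counts as deposited. Among simple keratins, KRT18 over KRT19 per kb went from 1.86 ± 0.130 in the control to 5.61 ± 0.144 at 12 h and back to 1.98 ± 0.165 at 48 h.

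**Figure D4:**
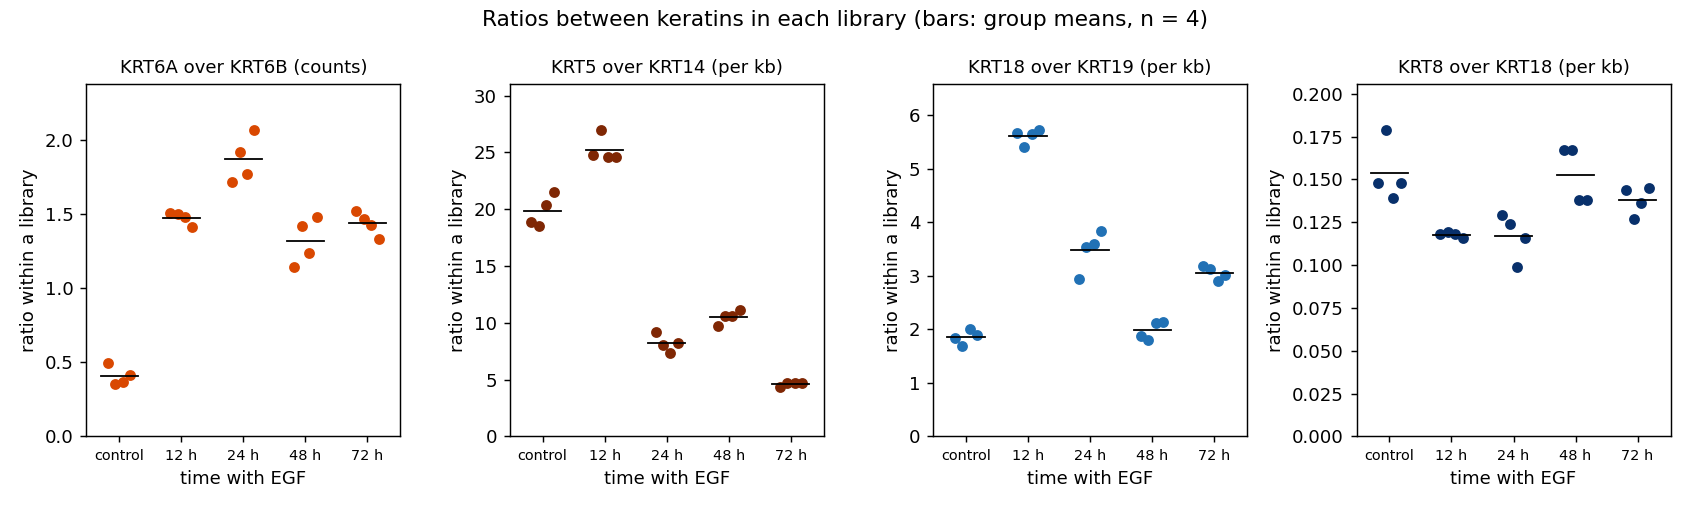
Ratios of keratins within each library (axes from 0), as counts for KRT6A over KRT6B and per kb of transcript for the others, with points for libraries and bars for group means (n = 4). KRT6A over KRT6B is under 0.5 in the 4 control libraries and above 1 in the 16 EGF libraries, and KRT5 over KRT14 falls from 25.2 at 12 h to 4.63 at 72 h.

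Time points were also compared with each other. From 12 to 24 h, 8 of 10 keratins fell, where 25.9% of all genes were called lower, and none rose (0 also at an unadjusted p under 0.05 and by DESeq2), where 27.9% were called higher. KRT17 fell most (log2 fold change -1.74, SE 0.096, adjusted p = 2.35e-12), then KRT5 (-1.45), KRT6B (-1.14), KRT7 (-0.99), KRT8 (-0.97), KRT18 (-0.95) and KRT6A (-0.80). KRT19 fell by 0.27 on the log2 scale (adjusted p = 0.0113), a call that was lost with scaling by library size only (adjusted p = 0.232), by upper quartiles (adjusted p = 0.185) or by a factor for each gene (adjusted p = 0.242). KRT14 and KRT16 did not fall, with log2 fold changes of 0.18 (adjusted p = 0.12) and 0.17 (adjusted p = 0.154). Both were called higher at 24 h with scaling by library size only (0.32, adjusted p = 0.00645, and 0.31, adjusted p = 0.0114), with upper quartiles and with only the 8 libraries compared. KRT14 was also called higher without replicate 1 of 24 h (0.26, adjusted p = 0.0303).

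From 24 to 48 h, 9 of 10 fell (background 24.3%) and none rose by edgeR, by DESeq2 or at an unadjusted p under 0.05 (0 each, background 25.9%). The falls of KRT6A (log2 fold change -3.19, SE 0.103, adjusted p = 1.21e-16) and KRT6B (-2.68, SE 0.077) were the largest of the 10, followed by KRT17 (-2.09), KRT14 (-1.70), KRT18 (-1.67), KRT5 (-1.33), KRT8 (-1.27), KRT16 (-1.18) and KRT19 (-0.85). KRT7 was at -0.22 (SE 0.093, adjusted p = 0.0558), which passed the threshold without replicate 3 of 24 h or without replicate 1 or 2 of 48 h (adjusted p = 0.0386, 0.0449 and 0.0295). It also passed with the Wald test of DESeq2 (adjusted p = 0.0447), and in edgeR with the factors of DESeq2, only the 8 libraries compared or the replicate block (adjusted p = 0.0451, 0.0464 and 0.0214), so that each of these called all 10 lower.

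From 48 to 72 h, 8 of 10 rose by edgeR and none fell, by DESeq2 or at an unadjusted p under 0.05 either (0 each, background 17.9% in each direction). KRT6A and KRT17 each had a log2 fold change of 1.72, and KRT6B of 1.59, KRT14 of 1.28 and KRT16 of 1.25, with adjusted p of 1.77e-09 or less. KRT18 rose by 0.79 (adjusted p = 8.07e-08) and KRT8 by 0.64 (adjusted p = 0.000104). KRT7 was at 0.27 (adjusted p = 0.0269), with overlapping groups, and was not called without replicate 3 or 4 of 48 h or replicate 1 of 72 h (adjusted p = 0.08, 0.0869 and 0.108), nor with upper quartiles (adjusted p = 0.0906) or the library size alone (adjusted p = 0.133) as scaling. KRT19 at 0.16 (adjusted p = 0.166) and KRT5 at 0.09 (adjusted p = 0.371) did not pass.

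Between 12 and 72 h, 9 of 10 were lower at 72 h (background 32%) and 1 was higher (background 35.6%). KRT5 had the largest fall (log2 fold change -2.69, SE 0.077, adjusted p = 3.16e-18), and KRT6A (-2.27), KRT6B (-2.23) and KRT17 (-2.11) came next. The 2 smallest differences were uncertain. KRT16 was higher at 72 h by 0.24 (SE 0.10, adjusted p = 0.0354), which was lost without replicate 1, 2 or 3 of 12 h or replicate 1 of 72 h (adjusted p = 0.0583, 0.0653, 0.106 and 0.186), without a filter beyond 1 count (adjusted p = 0.0816) and with a factor for each gene (adjusted p = 0.435). KRT14 was lower by 0.24 on the log2 scale (adjusted p = 0.0354), which was lost without replicate 1, 3 or 4 of 12 h or replicate 2, 3 or 4 of 72 h (adjusted p between 0.051 and 0.0926), with upper quartiles (adjusted p = 0.404) or the library size alone (adjusted p = 0.791) as scaling, and with at least 10 counts in every library (adjusted p = 0.185).

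In the order of their levels over the groups, KRT5, KRT6A, KRT6B, KRT8, KRT17, KRT18 and KRT19 were highest at 12 h and next at 24 h. KRT7 was highest at 12 h too, but its levels at 24 and 72 h did not differ beyond their spread (log2 fold change 0.05, adjusted p = 0.693). KRT14 was highest at 24 h, without a call against 12 h, and KRT16 at 72 h, without a call against 24 h (log2 fold change 0.07, adjusted p = 0.599). For KRT18, KRT8, KRT19, KRT5 and KRT17, the lowest levels were those of the control and of 48 h, which did not differ beyond their spread, and KRT5 and KRT19 at 72 h did not differ from these either. For KRT6A, KRT6B, KRT14 and KRT16, the control was lowest, and for KRT7 the control did not differ from 48 h beyond the spread.

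Other keratins also rose. Of 44 further keratin genes in the tables, 14 had enough counts to be tested, and 9 had 0 counts in all libraries. At 12 h 11 of the 14 were called higher (background 32.9%) and 0 lower by edgeR (background 36.5%), with 1, KRT4, lower at an unadjusted p under 0.05, and a median log2 fold change of 1.89. At 24 h 12 were higher and 1 lower (background 29.2% and 29.6%), at 48 h 9 and 2 (24% and 21.8%), and at 72 h 11 and 1 (30.6% and 31%). KRT4 was among those called lower at 24 h (log2 fold change -1.69, adjusted p = 4.5e-11), 48 h (-0.98) and 72 h (-0.51). Genes that passed the filter only through the EGF libraries had to be higher there, so these counts are not a support for a rise of keratins as a whole. The 4 with the highest mean CPM were KRT23, KRT81, KRT10 and KRT34. KRT23, a type I keratin, went from 302 ± 21.6 CPM in the control to 1156 ± 27.5 CPM after 12 h of EGF (log2 fold change 1.94, adjusted p = 3.68e-16), and at 48 h was below the control at 184 ± 12.4 CPM (-0.71, adjusted p = 4.91e-08). KRT81, a type II hair keratin, went from 114 ± 17 to 883 ± 58.5 CPM after 12 h of EGF (2.95, adjusted p = 6.36e-18) and was at 486 ± 51.3 CPM after 72 h of EGF. KRT34, a type I hair keratin, was at 1.03 ± 0.491 CPM in the control, 49.9 ± 0.626 at 12 h, 29.2 ± 1.57 at 48 h and highest at 72 h with 102 ± 6.84 CPM. KRT10, the keratin of suprabasal epidermis, was at 57.1 ± 10.5 CPM in the control and between 54.8 and 63.9 CPM with EGF, and was not called at any time.

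Of 17 other intermediate filament genes, 10 were tested. Of these, 7 were called higher and 3 lower at 12 h (background 32.9% and 36.5%), 5 and 2 at 24 h (29.2% and 29.6%), 5 and 3 at 48 h (24% and 21.8%) and 4 and 4 at 72 h (30.6% and 31%). The counts of lower genes, and both counts of 72 h, lay near these shares of all genes. VIM, which encodes vimentin, the filament of mesenchymal cells, had 20.3 ± 1.46 CPM without EGF and 204 ± 15.1 CPM after 12 h of EGF (log2 fold change 3.33, SE 0.079, adjusted p = 4.07e-20). Its libraries of 24 h, at 372 to 396 CPM, all lay above those of 12 h, at 191 to 224 CPM, and it was at 104 ± 11.2 CPM after 48 h of EGF and 165 ± 0.856 CPM after 72 h of EGF. So in these libraries the mRNAs of the 10 keratins and of vimentin were all above the control at 12 and at 24 h. LMNB1, a nuclear lamin, fell from 107 ± 8.45 to 34.6 ± 2.87 CPM after 72 h of EGF (-1.63, adjusted p = 3.36e-15). LMNA, the gene of lamins A and C, was highest at 12 h, at 156 ± 6.19 against 74.8 ± 12.1 CPM. LMNB2, another lamin, was at 26.2 ± 1.21 CPM after 12 h of EGF against 17.4 ± 2.99. By edgeR, LMNB2 was then lower than the control at 48 h (-0.36, adjusted p = 0.0195) and at 72 h (-0.45, adjusted p = 0.00351).

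Of 18 genes of proteins that bind or modify keratins, 16 were tested. At 12 h 12 were higher and 1 lower (background 32.9% and 36.5%), and at 24 h 9 and 0 (29.2% and 29.6%), with 1, HSPB1, lower at an unadjusted p under 0.05. At 48 h 5 were higher and 3 lower (24% and 21.8%) and at 72 h 4 and 3 (30.6% and 31%), which is near or below the shares of all genes. The median log2 fold changes were 0.75, 0.38, 0.02 and -0.05. SFN, the 14-3-3 sigma protein that binds keratins in stressed cells, went from 246 ± 40.0 to 942 ± 47.7 CPM after 12 h of EGF (1.94, adjusted p = 5.8e-14). DSP, desmoplakin, which ties keratin filaments to desmosomes, had 280 ± 4.91 CPM without EGF and 470 ± 22.2 CPM after 12 h of EGF (0.75, adjusted p = 1.68e-08), and did not differ at 48 h (-0.13, adjusted p = 0.191). HSPB1, a small heat shock protein, was called at 48 h (0.39, adjusted p = 0.0324), and CSNK1A1, casein kinase 1 alpha, at 12 h (-0.25, adjusted p = 0.0217).

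The genes most alike to KRT18, by Pearson's r of log2 CPM over the 20 libraries among 13881 genes, were RFFL (0.992), MAP4K4 (0.992) and SHANK2 (0.991). Those most alike to KRT5, the most abundant basal or stress keratin by mean CPM, were C16orf74 (0.99), PPP4R1 (0.988) and EIF5A (0.987). These values describe a shared course over 5 groups, since libraries of a group share its level, and were not tested.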

How the data were processed

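MDA-MB-468 cells of 5 groups, with 4 libraries each, were compared. The authors made mRNA libraries (Lexogen Corall) and read them from a single end. The authors deposited 10 tables with the same estimated counts, rounded to whole numbers, for 60271 genes. Beside them, they deposited normalized values, used here as a score per gene and library from which factors per gene were derived, and their own fold changes and p-values from DESeq2, which were not used. The genome build in the submitters' processing notes was hg38. The aligner, the annotation and the handling of strand and of shared reads are not given in the sources used here.

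Counts were analyzed with edgeR 4.0.16 in R 4.3.3, with TMM scaling, filterByExpr (16522 genes), 1 mean per group over all 20 libraries, the robust quasi-likelihood test and Benjamini-Hochberg adjustment, with 0.05 as the threshold. The prior count was 0.125. Every EGF group was set against the control and against the time before it, and 72 h with 12 h, while 72 h against 24 h is given for the order of levels only. On simulated data for 12 h against the control, 173 of 200 genes changed 2-fold were called, as were 4 unchanged genes, of 14929. So few changes, in both directions, do not test the scaling where many genes change. In the data, edgeR called 11465 of 16522 genes at 12 h against the control. Replicates varied more than counting error, by 3.53 to 57.5 times over 30 pairs. This cannot tell separate cultures from separate libraries of 1 culture, which can also vary more than counting error. The 4 replicates limit the precision of all values at this depth, which for KRT6A in the control came to 51 to 67 counts. Positions, transcripts and windows were taken from GENCODE 29, which held 58036 of the gene IDs. Sequences of windows were compared on the same strand, with all other transcripts of the annotation.

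The 10 keratins and the lists were chosen with earlier results of these data known. Named are the 10, the 4 genes with the highest mean CPM of each list, the 3 most alike to KRT18 and to KRT5 (mean of at least 1 CPM) and the genes of the marker lists. KRT4 is named too, with the counts of lower genes. Alternatives were other scalings (library size only, upper quartiles, DESeq2's factors), the DESeq2 1.42.0 Wald test, other filters (none beyond 1 count, or 10 counts or more in each library), a fit of only 8 libraries, a replicate block, summed KRT6 counts, added pseudogene counts and leaving out each library. Factors per gene, where each library had 20 counts or more, were an alternative chosen after seeing the data.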

Additional observations from a re-analysis of the deposited data

Results flagged for a closer look

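In 2 of the 50 groups of 4 libraries tested, 1 per keratin and time point, a library stood apart from the other 3 by more than Dixon's critical value, where chance gives about 1 in 20 groups. KRT19 was at 455 CPM in replicate 1 of EGF 72 h, the highest of its group, with a gap of 0.842 of the range. KRT14 was at 32 CPM in replicate 1 of EGF 24 h, the lowest of its group, with a gap of 0.851 of the range.

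The change from the control differed between time points, by the direct comparison of the 2 EGF groups with edgeR's quasi-likelihood test. Between 12 and 24 h it differed for 8 of the 10 keratins, all lower at 24 h, where 25.9% of all genes were called lower, and between 24 and 48 h for 9, all lower at 48 h, where 24.3% were. Between 48 and 72 h it differed for 8, all higher at 72 h, where 17.9% of all genes were called higher. Between 12 and 72 h it differed for 10, of which 9 were lower at 72 h, against 32% of all genes, and 1 was higher, against 35.6%. Of these 10, the calls of KRT14 (-0.24) and KRT16 (0.24), both at an adjusted p of 0.0354, were lost in several alternatives, given above. The calls of KRT19 between 12 and 24 h and of KRT7 between 48 and 72 h were lost in some alternatives too.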

How the results depend on the processing

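Over 11 alternatives other than leaving out a library, 853 of 880 log2 fold changes of single keratins kept their direction and their side of the threshold, 11 lost and 12 gained the call, and 4 changed sign. With 1 library left out it was 612 of 640, with 13 losses, 7 gains and 8 changes of sign. Part of the 880 could hardly move. Summing the KRT6 counts left the counts of the other keratins as they were, and gave KRT6A and KRT6B the same value. Adding pseudogene counts left those of KRT5, KRT6A, KRT6B, KRT7 and KRT14 as they were. Scaling by library size only lowered the log2 fold changes of the keratins by a median of 0.29 at 12 h against the control, with upper quartiles by 0.16, and no call of that comparison was lost. The cause of the changes below was not tested. From 12 to 24 h, 2 keratins, KRT14 and KRT16, were higher instead of 0 with library size only, with upper quartiles and with only the 8 libraries compared. From 12 to 72 h, 0 were higher instead of 1 without a filter beyond 1 count and with factors per gene. The shares of basal and stress keratins per kb were 14.1, 32.7, 26.9, 17.4 and 25.1% in the control and at 12, 24, 48 and 72 h.

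Changes of sign were seen only in log2 fold changes near 0 that were not called. KRT19 log2 fold change, EGF 48 h against the control, was 0.005 with upper quartiles and 0.026 with at least 10 counts in every library, and from -0.11 to 0.05 with 1 library left out. KRT5 at 72 h was at -0.056 with library size only and -0.002 with upper quartiles, and from -0.027 to 0.085 with 1 library left out. KRT8 at 48 h ranged from -0.029 to 0.18 in the same way.

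With 1 library left out, the number of keratins called higher than the control ranged from 4 to 5 at 48 h and 8 to 9 at 72 h, and stayed at 10 at 12 and 24 h. From 12 to 24 h 0 to 1 were higher, from 24 to 48 h 9 to 10 lower, from 48 to 72 h 7 to 8 higher, and from 12 to 72 h 0 to 1 higher and 8 to 9 lower. The shares of basal and stress keratins ranged from 17.4 to 18.0%, 38.5 to 38.8%, 32.8 to 33.1%, 21.5 to 22.3% and 29 to 29.8%.

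The replicate numbers paired the libraries weakly, if at all. Deviations of libraries with the same number had a median correlation of 0.019 (from -0.374 to 0.568, over 0.1 in 12 of 40 pairs). With different numbers it was -0.008 (from -0.53 to 0.461, over 0.1 in 23 of 120 pairs). Of 20 libraries, 4 correlated best with their own number. With the replicate block, the calls over all genes rose by at most 1.046 times, and KRT7 was called at 48 h against the control (0.21, adjusted p = 0.0323) and against 24 h (-0.22, adjusted p = 0.0214), with edgeR.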
